A study of Mus musculus with 4 samples.

Results

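The genes of the tumour necrosis factor (TNF) superfamily were located relative to the binding of RIF1, a protein that controls when in S phase a region is replicated. Members were the protein-coding genes on chromosomes 1 to 19 with a symbol that begins with Tnfsf (ligands) or Tnfrsf (receptors), together with Tnf, Lta, Ltb, Cd70, Ltbr, Cd40, Cd27 and Fas. This rule, which uses no measured value, took 40 gene records of 21418 autosomal coding genes. The records carry 39 symbols, since the annotation holds a short second record of Tnfrsf22 that overlaps the longer one. Of the 40, 15 were ligands and 25 were receptors.

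RIF1 was mapped by chromatin immunoprecipitation and sequencing (ChIP-seq, on fragments of 200 to 600 bp) in splenic B cells that had been depleted of CD43-positive cells and cultured for 72 h with 5 µg/ml lipopolysaccharide (LPS) and 5 ng/ml interleukin 4 (IL-4). The 2 Rif1FH samples came from Rif1FH/FH mice, whose own Rif1 gene carries a Flag and haemagglutinin (HA) tag on both alleles, and the 2 Rif1WT samples came from C57BL/6 (Rif1WT/WT) mice with untagged RIF1. All samples shared the culture, and precipitation was with an anti-HA antibody, so that Rif1WT cells served as the negative control. The age of the mice and the number of mice behind a sample were not given in the sources used here.

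The deposited list combined both Rif1FH samples and gave positions only. It held 16043 intervals under 50 kb wide, called peaks here, and 289 wider intervals, which were taken to be RIF1-associated domains (RADs). No interval had a width between 14827 bp and 90 kb. There is no height, no read count and no value for a sample or for Rif1WT, so the spread between replicates, the depth and the background could not be given for any gene. The cell type label could not be checked either, as the list holds no expression. The 95% Wilson intervals below cover counting error only and treat genes as independent, although members lie in clusters. No test was made between the members and other genes.

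TNF superfamily ligands are mostly trimeric proteins on the cell surface or cut from it, and their receptors signal through a death domain or through TRAF adaptor proteins, largely towards NF-kappaB or cell death. In B cells, CD40 receives the help of T cells, receptors for BAFF and APRIL maintain survival and antibody secretion, and FAS triggers cell death. Many of the genes arose by duplication and lie next to each other.

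The members fell into separate classes. A peak lay at the 5′ end, within 1 kb on either side of the first base of the gene, in 14 of 40 members (35%, 95% Wilson interval 22.1 to 50.5%), against 32.2% of all autosomal coding genes. A further 3 members had a peak in the gene only, which made 17 with a peak over the gene or its 5′ end (42.5%, 28.5 to 57.8%), against 37.7% of all genes. A wide interval covered 19 members (47.5%, 32.9 to 62.5%), against 23.6% of all genes. Only 4 members had neither (10%, 3.96 to 23.1%), against 39.1% of all genes. The share with a peak at the 5′ end was thus close to the background, whereas that in wide intervals was higher and that with neither lower.

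Peaks were defined in the study as lying outside RADs, so that genes inside a wide interval could hardly have one. Among the 21 members outside wide intervals, 14 had a peak at the 5′ end (66.7%, 45.4 to 82.8%), against 41.8% of the 16369 autosomal coding genes outside them. A peak over the gene or its 5′ end was found in 17 of the 21 (81.0%, 60.0 to 92.3%), against 48.9%.

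**Figure D1:**
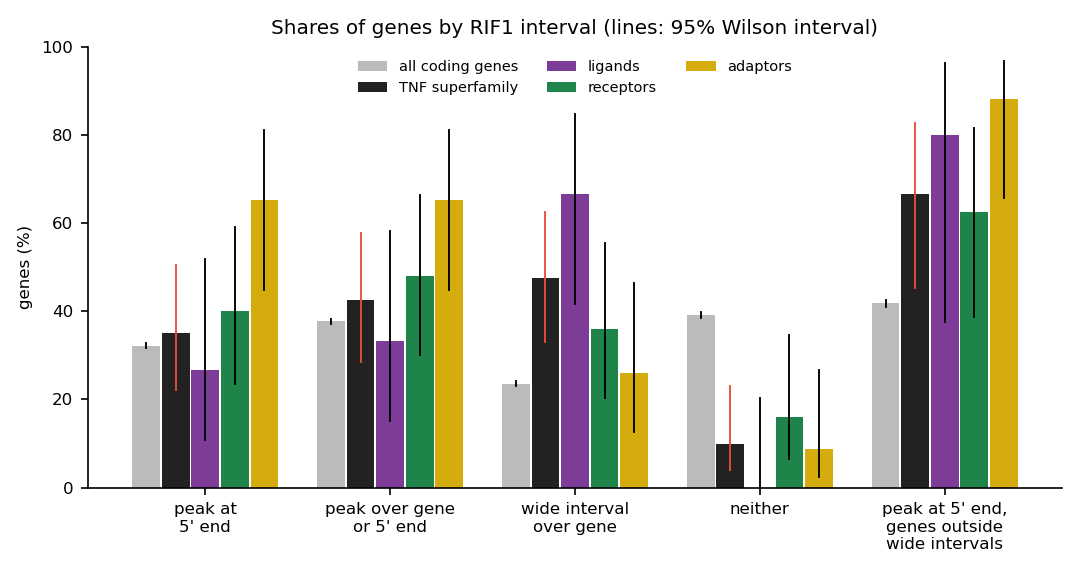
The bars give the percentage of genes with each kind of RIF1 interval, for all autosomal coding genes, the 40 TNF superfamily members, the 15 ligands, the 25 receptors and 23 signalling adaptors, and the vertical lines are 95% Wilson intervals. The members stand near all genes for peaks at the 5′ end (35% and 32.2%) and above them for wide intervals (47.5% and 23.6%).

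To show sequence under the peaks, 200 bases directly upstream of the 5′ end (build mm9) are given for the 3 members whose peak midpoint lay closest to it, and for the ligand of Tnfrsf13b that lay in a wide interval and had no peak. Tnfrsf13b, the receptor TACI for BAFF and APRIL, has its window at chr11:60940057-60940256 on the plus strand, and the midpoint of its peak was 13 bp downstream of the 5′ end. Fas, the death receptor (chr19:34364949-34365148, plus strand), had its midpoint 28 bp upstream, and Tnfrsf10b, the mouse death receptor for TRAIL (chr14:70167079-70167278, plus strand), 91 bp upstream. Tnfsf13, which encodes APRIL, has its window at chr11:69499287-69499486 on the minus strand. Capitals mark each CG pair. No exon of any annotated gene overlapped these windows.
Tnfrsf13b: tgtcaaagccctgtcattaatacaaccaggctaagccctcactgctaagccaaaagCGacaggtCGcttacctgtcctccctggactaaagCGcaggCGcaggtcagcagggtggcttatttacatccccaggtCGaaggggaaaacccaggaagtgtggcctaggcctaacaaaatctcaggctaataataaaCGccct
Fas: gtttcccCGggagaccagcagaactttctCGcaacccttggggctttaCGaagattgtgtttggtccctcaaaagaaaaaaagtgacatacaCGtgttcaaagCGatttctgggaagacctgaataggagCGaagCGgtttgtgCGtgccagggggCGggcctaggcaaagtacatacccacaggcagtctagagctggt
Tnfrsf10b: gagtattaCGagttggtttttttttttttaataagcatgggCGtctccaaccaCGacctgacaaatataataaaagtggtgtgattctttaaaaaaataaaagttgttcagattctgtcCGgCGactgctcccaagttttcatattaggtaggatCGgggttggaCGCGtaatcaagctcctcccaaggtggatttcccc
Tnfsf13: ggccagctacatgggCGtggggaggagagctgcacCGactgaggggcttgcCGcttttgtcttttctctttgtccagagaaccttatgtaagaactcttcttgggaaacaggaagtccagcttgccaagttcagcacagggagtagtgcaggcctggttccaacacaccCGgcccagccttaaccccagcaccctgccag

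These windows held 6 CG pairs in Tnfrsf13b, 9 in Fas, 8 in Tnfrsf10b and 4 in Tnfsf13. Over the same 200 bases the median was 7 in 21413 autosomal coding genes without an unknown base, and 14 in the 6841 of them outside wide intervals that had a peak at the 5′ end. The 14 members with such a peak had a median of 6 (range 2 to 24), which is near all genes and below the other genes with a peak. The letters GGGCGG or their reverse complement CCGCCC, a GC box, occurred in the window of Fas and not in the other 3 windows printed, in 6 of the 14 members with a peak (42.9%), in 38.2% of all genes and in 57.9% of genes with a peak.

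Over the whole 2 kb around the 5′ end, the members with a peak again held fewer CG pairs (median 51, range 14 to 104) than all genes outside wide intervals with a peak there (median 91, quartiles 68 and 120). Tnfrsf21 had the most, at 104, and Tnfrsf26 the fewest, at 14. Their GC content had a median of 50.0% (range 43.9 to 56.4%), and that of the 26 members without a peak at the 5′ end was 53.1% (41.5 to 60.8%). For all autosomal coding genes the order was the other way. Genes outside wide intervals with a peak there had a median of 53.7%, and all other genes had 49.6%. The groups set against the genes with a peak differed in make-up, and the part this played in the order was not tested. Of the 26 members, 19 lay in wide intervals, where the median was 53.2%, near the 53.1% of all genes in wide intervals. Of the 14576 other genes, which include the few in wide intervals with a peak there, 8372 had neither, with a median of 46.3%. Genes with a peak differed too, at 50.0% in members and 53.7% in all genes outside wide intervals. The members' ranges overlapped over most of their length. With windows of 0.5 kb their medians came closer, to 53.7% with a peak and 54.3% without.

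Among ligands, 4 of 15 had a peak at the 5′ end (26.7%, 95% Wilson interval 10.9 to 52.0%), near the 32.2% of all autosomal coding genes. These were Tnfsf4, Tnfsf10, Tnfsf11 and Tnfsf13b. Tnfsf4 (ENSMUSG00000026700.3, chr1:163325581-163348337), which encodes the T cell costimulator OX40 ligand, had a peak of 1843 bp with its midpoint 721 bp downstream of the 5′ end, in an intron. Tnfsf10 (ENSMUSG00000039304.5, chr3:27215950-27241349), which encodes the death ligand TRAIL, had a peak of 2184 bp centred 193 bp upstream.

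Tnfsf11 (ENSMUSG00000022015.7, chr14:78677252-78707850) encodes RANKL, the ligand that drives osteoclasts, and had the widest peak of all members at 2832 bp, centred 569 bp downstream in an intron. Tnfsf13b (ENSMUSG00000031497.7, chr8:10006843-10035441) encodes BAFF, a survival factor of B cells, and had a peak of 1225 bp with its midpoint 155 bp downstream, in an exon. In Tnfsf18 (ENSMUSG00000066755.2, chr1:163424786-163435421), which encodes the ligand of GITR, the peak of 2138 bp lay in an intron 6.21 kb downstream and did not reach the 5′ end. The other 10 ligands (66.7%, 41.7 to 84.8%) lay in wide intervals, against 23.6% of all genes, and each shared its interval with another ligand. No ligand had neither, against 39.1%.

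Among receptors, 10 of 25 had a peak at the 5′ end (40%, 23.4 to 59.3%), against 32.2% of all genes, and 2 had a peak in the gene only. Another 9 (36%, 20.2 to 55.5%) lay in wide intervals, against 23.6%, and both of these intervals held the share of all genes. The remaining 4 had neither (16%, 6.40 to 34.7%), against 39.1%. The intervals of ligands and receptors overlapped widely for each of these shares.

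Of the 12 receptors listed as costimulatory or otherwise TRAF-binding, 8 lay in wide intervals (66.7%, 39.1 to 86.2%), against 23.6% of all genes, and most of the 8 shared an interval with another member. A peak at the 5′ end was found in 3 (25%, 8.89 to 53.2%), against 32.2%, and 1 had a peak in the gene only. The receptors for BAFF and APRIL, Tnfrsf13b, Tnfrsf13c and Tnfrsf17, were listed apart and are not among the 12. None of them lay in a wide interval. Cd40 (ENSMUSG00000017652.8, chr2:164881127-164898448) had a peak of 2546 bp that covered the 5′ end and was centred 397 bp downstream, in an intron. Tnfrsf9 (ENSMUSG00000028965.7, chr4:150288671-150320211), which encodes the costimulator CD137, was met by 4 peaks, the most of any member. The one at its 5′ end was 2538 bp wide, centred 332 bp upstream, and also met the 5′ window of Park7, a neighbouring gene for a stress response protein. It was the only peak at a member's 5′ end that met the window of another gene. The other 3 lay in the gene with midpoints 13.5, 23.8 and 25.4 kb downstream, the nearest in an exon and the others in introns.

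Tnfrsf19 (ENSMUSG00000060548.5, chr14:61582671-61665692), which encodes TROY and is the longest member at 83.0 kb, had a peak of 2287 bp centred 614 bp downstream and another 9.03 kb downstream. Tnfrsf11a (ENSMUSG00000026321.6, chr1:107677300-107744558) encodes RANK, the receptor of RANKL, and had a single peak of 1438 bp in an intron, 20.9 kb from its 5′ end.

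Of the 5 death domain receptors, 3 had a peak at the 5′ end (60%, 23.1 to 88.2%), and this interval held the 32.2% of all genes. Fas (ENSMUSG00000024778.6, chr19:34365149-34402260) had a peak of 1506 bp and Tnfrsf10b (ENSMUSG00000022074.5, chr14:70167279-70184210) one of 1006 bp, both centred just upstream as given above. Tnfrsf10b had another peak of 930 bp in an intron, 7.30 kb downstream. Tnfrsf21 (ENSMUSG00000023915.4, chr17:43153504-43226137), which encodes DR6, had a peak of 1598 bp centred 371 bp downstream in an exon, and another 16.2 kb downstream in an intron. Tnfrsf1a, which encodes the main receptor of TNF, lay in a wide interval, and Tnfrsf25, which encodes DR3, had neither.

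The genes for BAFF, APRIL and their receptors differed among themselves. Tnfrsf13b (ENSMUSG00000010142.6, chr11:60940257-60962874) had a peak of 1774 bp at its 5′ end, and Tnfsf13b also had one there. Tnfrsf17 (ENSMUSG00000022496.5, chr16:11313905-11320167), which encodes the plasma cell receptor BCMA, had a peak of 2064 bp in an intron 3.60 kb downstream. Tnfrsf13c (ENSMUSG00000068105.3, chr15:82052174-82054790), which encodes the BAFF receptor, had none, and the closest peak was centred 5.37 kb upstream of it, outside genes. Tnfsf13 lay in a wide interval.

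The decoy receptors Tnfrsf22 and Tnfrsf23, which bind TRAIL without a death domain, and the related Tnfrsf26 form a cluster of 78.2 kb on chromosome 7 (150793568 to 150871777) that held 4 peaks, all at a 5′ end. Tnfrsf26 had a peak on each side, of 1735 bp centred 485 bp upstream and of 1882 bp centred 1.70 kb downstream. The longer record of Tnfrsf22 (ENSMUSG00000010751.8) had a peak of 1026 bp centred 143 bp downstream. Tnfrsf23 (ENSMUSG00000037613.9) had the narrowest of the members' peaks, 520 bp, centred 205 bp downstream. The short record of Tnfrsf22 (ENSMUSG00000090852.1) had none, and the nearest peak was that of Tnfrsf26. Tnfrsf11b, which encodes osteoprotegerin, a soluble decoy for RANKL, had no peak closer than 759 kb to its 5′ end and was the most remote of the members outside wide intervals.

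The 4 records with neither were thus Tnfrsf25, Tnfrsf13c, Tnfrsf11b and the short record of Tnfrsf22. For Tnfrsf25 (ENSMUSG00000024793.8, chr4:151490043-151494228) the closest peak, of 1327 bp, was centred 5.00 kb downstream of the 5′ end and overlapped Espn, beyond the end of Tnfrsf25. For Tnfrsf25, Tnfrsf13c and Tnfrsf17, a peak edge lay 4.34, 4.69 and 2.57 kb from the 5′ end, so that a window of 5 kb would count them. A missing peak says only that none was listed.

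In all, 24 peaks met a member, and no peak met more than 1. Of these, 15 lay at a 5′ end and 9 in the gene only, with 8 of the 9 midpoints in an intron. Each of the 14 members with a peak at the 5′ end had a peak that covered the first base of the gene. A window of 0.1 kb therefore kept all 14, and the share of all autosomal coding genes went only from 32.2% to 28.9%. The midpoint nearest to the 5′ end was downstream in 9 members and upstream in 5, with a median of 149 bp downstream. For all genes, neither the share with a covered first base nor the side of the midpoint was computed. Among the members, the farthest of these midpoints were 721 bp downstream in Tnfsf4 and 485 bp upstream in Tnfrsf26. The peaks at 5′ ends were 520 to 2832 bp wide, with a median of 1774 bp, against 1590 bp for peaks at the 5′ end of any autosomal coding gene and 1365 bp for all peaks. Those in the gene only had a median of 1167 bp.

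**Figure D2:**
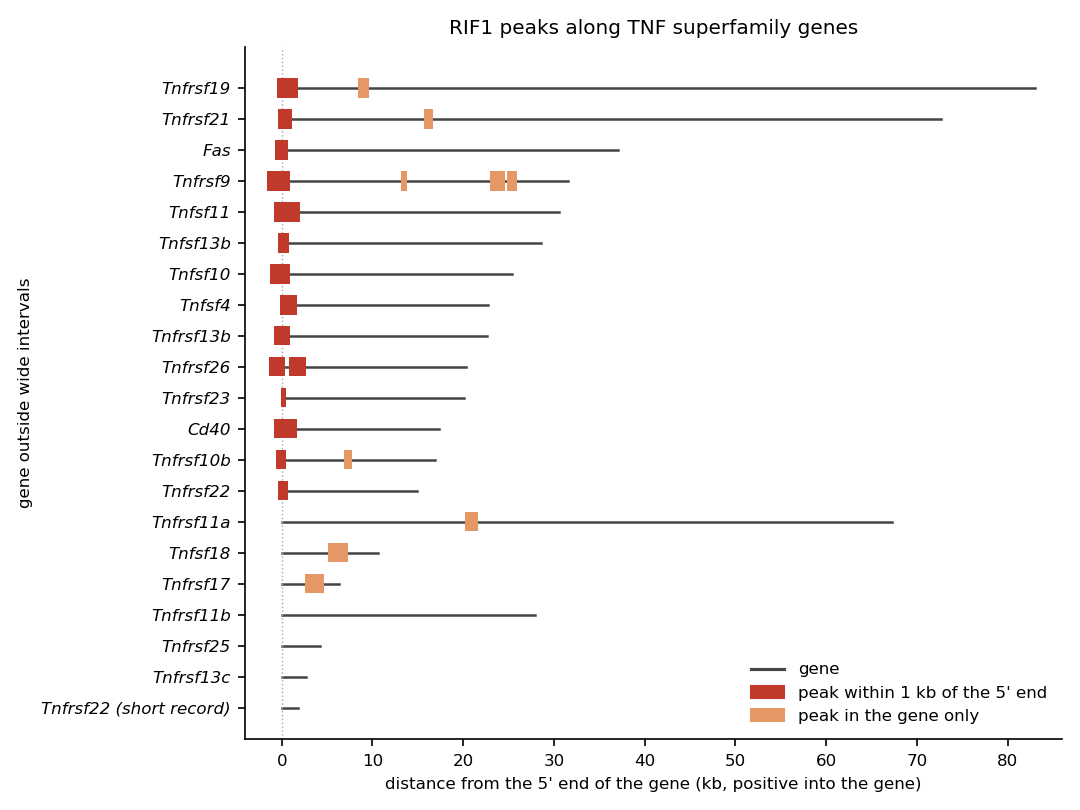
Each row is 1 of the 21 gene records outside wide intervals, drawn from its 5′ end at 0 (x axis in kb, positive into the gene), with boxes to scale for RIF1 peaks. The 14 members with a peak at the 5′ end stand at the top, and Tnfrsf9 alone carries 4 peaks.

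Wide intervals held the remaining 19 members, each of them whole, and there were 9 such intervals. On chromosome 17 the widest interval of the list (31626001 to 36468000, 4842 kb), which overlaps the major histocompatibility complex and 212 coding genes, held Ltb, Tnf and Lta side by side. Tnf (ENSMUSG00000024401.8, chr17:35336326-35338952) encodes TNF itself, and Lta and Ltb encode the lymphotoxins, which shape lymphoid organs. Their 5′ ends were 1126 to 1137 kb from the nearer edge of the interval, and the closest listed peak edge was 1631 kb from the 5′ end of Lta. Another interval on chromosome 17 (57060001 to 57636000, 576 kb, 21 coding genes) held Tnfsf9, Cd70 and Tnfsf14, the ligands of CD137, CD27 and HVEM. Tnfrsf12a, which encodes the TWEAK receptor, lay alone in the interval from 23660001 to 24120000 (460 kb, 29 coding genes).

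On chromosome 6, an interval of 1388 kb (124180001 to 125568000, 52 coding genes) held 3 receptor genes, Cd27, Ltbr and Tnfrsf1a. Cd27 encodes a costimulatory receptor, and Ltbr the receptor of the lymphotoxins. On chromosome 11, an interval of 2008 kb (68660001 to 70668000, 109 coding genes) held Tnfsf13 and Tnfsf12, which encode APRIL and TWEAK and follow each other on the same strand.

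Chromosome 4 had 4 of the 9 intervals. Tnfsf15 and Tnfsf8 lay in 1 of 522 kb (63126001 to 63648000) with 7 coding genes in all. Tnfsf15 encodes TL1A, the ligand of DR3, and Tnfsf8 the ligand of CD30. Tnfrsf1b, which encodes the other receptor of TNF, and Tnfrsf8, which encodes CD30, lay in 1 of 500 kb (144780001 to 145280000) with 6 coding genes. Tnfrsf14, the gene for HVEM, lay in 1 of 558 kb (154188001 to 154746000, 14 coding genes). Tnfrsf4 and Tnfrsf18, which encode OX40 and GITR, lay in 1 of 620 kb (155020001 to 155640000, 36 coding genes). Of these 19 members, Tnfrsf1b had its 5′ end closest to an edge, at 56.8 kb. The 9 intervals had a median of 37.5 coding genes per Mb (range 12 to 63.0), against 16.6 in the 285 wide intervals on autosomes. The intervals were taken because they held members, so this is a description.

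**Figure D3:**
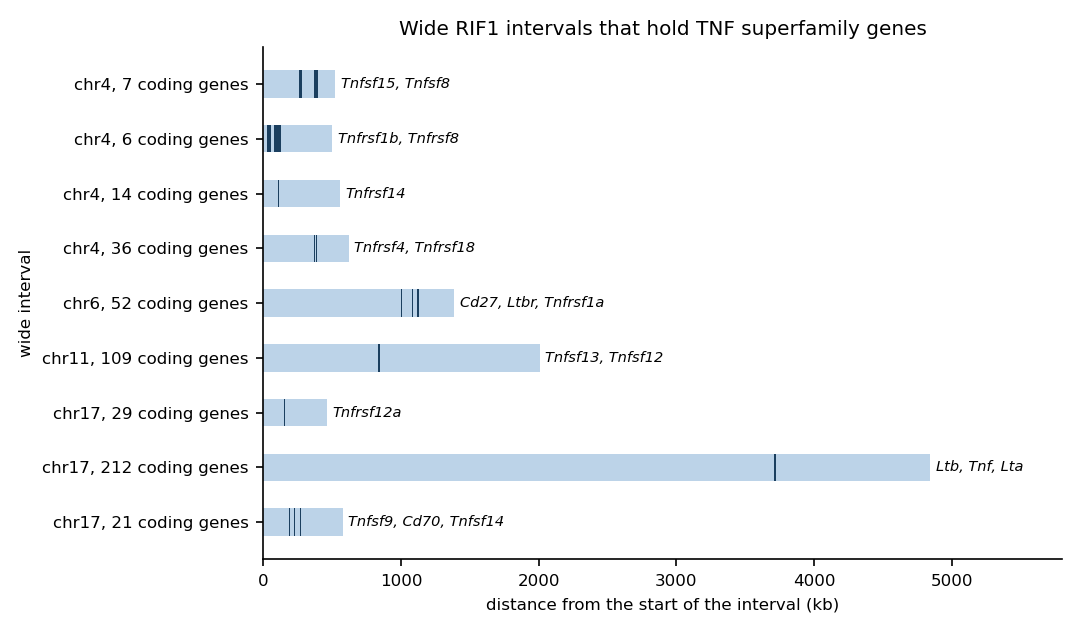
Pale bars show to scale the 9 wide RIF1 intervals that hold members (x axis, kb from the start of the interval), and dark marks the members named beside them, drawn at least 8 kb wide. The interval with Ltb, Tnf and Lta is the longest, at 4842 kb.

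Since neighbours share an interval, the 19 members are not 19 separate observations. Members within 500 kb of each other formed 9 clusters with 23 gene records. In 7 of these clusters, with 17 records, all members lay in 1 wide interval and had no peak. The other clusters were Tnfrsf26, Tnfrsf22 and Tnfrsf23 on chromosome 7, and Tnfsf4 and Tnfsf18 on chromosome 1, whose span of 110 kb held 3 peaks. In the 7 clusters the lack of a peak follows largely from the definition of peaks as lying outside RADs. No such share was computed for other neighbouring genes, and the 285 autosomal wide intervals had a median width of 580 kb. The cluster counts are therefore a description and not a trait shown to be particular to the family.

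Members in wide intervals were shorter and lay among more genes than those with a peak at the 5′ end. Their median length was 4.39 kb (range 1.88 to 48.0 kb) against 24.1 kb (14.9 to 83.0 kb), and their ranges overlapped between 14.9 and 48.0 kb. The number of coding gene 5′ ends within 500 kb on each side, the gene's own included, had medians of 35 (8 to 70) and 14 (5 to 42), with overlapping ranges. All autosomal coding genes had the same order, with median lengths of 11.4 and 28.1 kb and 30 and 12 genes. Gene length, gene density and the presence of a wide interval therefore moved together, and their separate parts were not tested.

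Divided by local gene density at the median of all genes, 15 of 21 members in denser surroundings lay in wide intervals (71.4%, 95% Wilson interval 50.0 to 86.2%), against 37.2% of all genes there, and 4 of 19 in sparser surroundings (21.1%, 8.51 to 43.3%), against 11%. Peaks at the 5′ end were found in 4 of 21 in denser surroundings, against 20.8%, and in 10 of 19 in sparser ones (52.6%), against 42.7%. By length, 15 of 21 short members lay in wide intervals, against 28.9% of all short genes, and 4 of 19 long members, against 18.2%. A peak at the 5′ end was present in 1 of 21 short members, the longer record of Tnfrsf22 at 14.9 kb, against 20.5%, and in 13 of 19 long members (68.4%), against 43.9%.

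**Figure D4:**
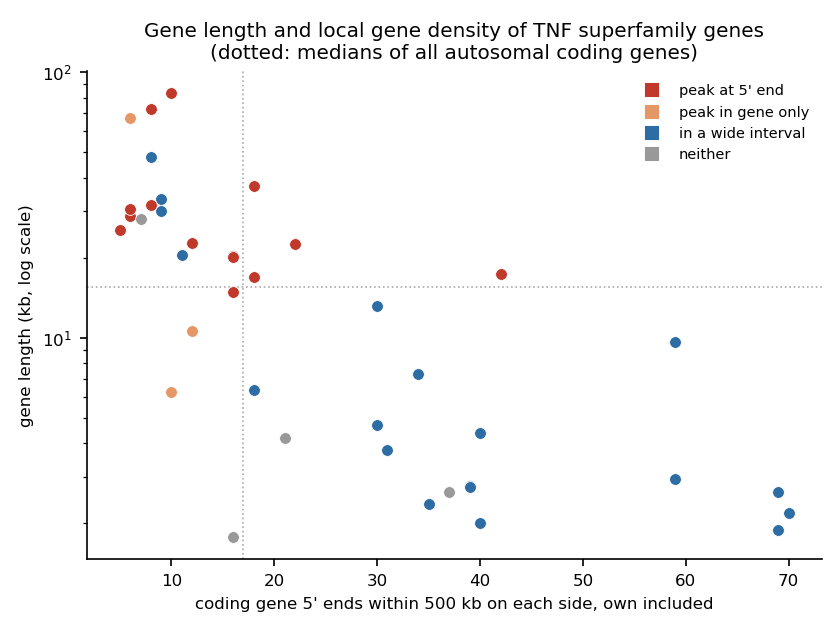
Each point is a member, by the number of coding gene 5′ ends within 500 kb on each side (x axis) and its length in kb (y axis, log scale), coloured by its RIF1 class, with dotted lines at the medians of all autosomal coding genes and some points overlapping. Of the 19 members in wide intervals, 15 lie below the median length and to the right of the median density, and those with a peak at the 5′ end lie at 14.9 kb and above.

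Ligands and their receptors were then set side by side, as 22 known pairs. In 10 pairs both genes lay in wide intervals, on different chromosomes except for Tnfsf8 and Tnfrsf8. These were the pairs of Tnf and of Lta with Tnfrsf1a and Tnfrsf1b, Ltb with Ltbr, Tnfsf14 with Ltbr and with Tnfrsf14, Cd70 with Cd27, Tnfsf8 with Tnfrsf8, and Tnfsf12 with Tnfrsf12a. In 2 pairs both genes had a peak at the 5′ end, namely TRAIL with its death receptor (Tnfsf10 and Tnfrsf10b) and BAFF with TACI (Tnfsf13b and Tnfrsf13b). The 22 pairs left out TRAIL with its decoy receptors, although they included RANKL with its decoy Tnfrsf11b. Fas and Cd40 were in no pair either, and the rule did not take the genes of their ligands. Both TRAIL decoys, Tnfrsf23 and the longer record of Tnfrsf22, also had a peak at the 5′ end. In 7 pairs a single gene had such a peak, as in the OX40 pair, where Tnfsf4 had one and Tnfrsf4 lay in a wide interval, and in the CD137 pair, where Tnfrsf9 had 4 peaks and Tnfsf9 lay in a wide interval. The pairs share genes, so that Tnf, Lta and the receptors Tnfrsf1a and Tnfrsf1b alone make 4 of the 10. Taken singly, 47.5% of members lay in wide intervals, against 23.6% of all genes, and 35% had a peak at the 5′ end, against 32.2%. No share was computed for unpaired genes set side by side. The counts therefore do not tell whether paired genes are alike more often than others.

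**Figure D5:**
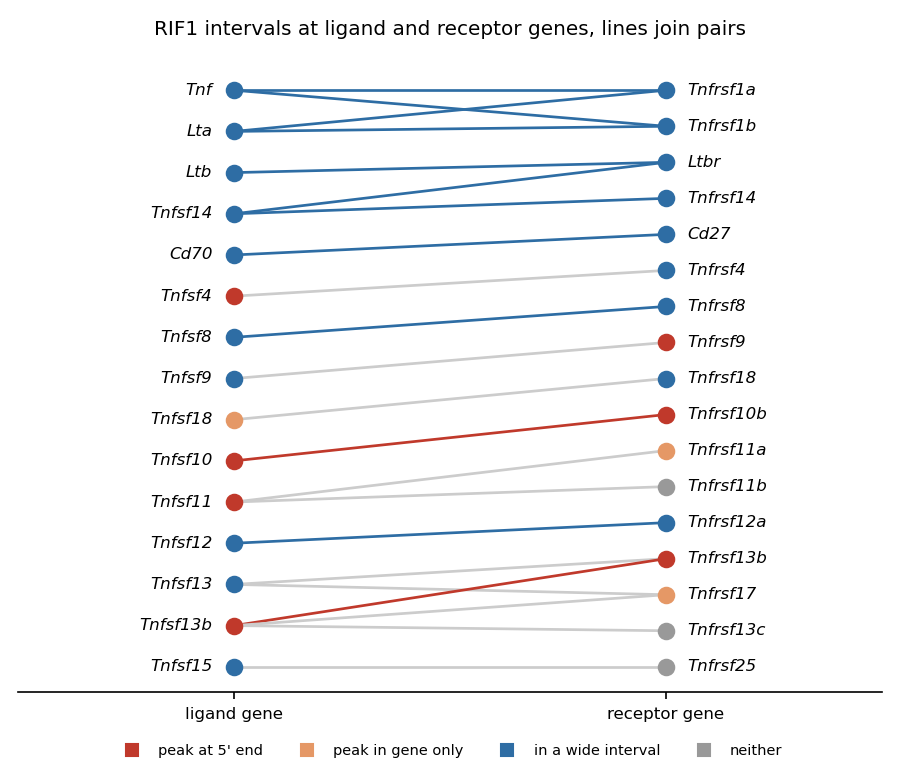
Lines join the 22 ligand and receptor pairs, with each gene coloured by its RIF1 class, and lines are blue where both genes lie in wide intervals (10 pairs) and red where both have a peak at the 5′ end (2 pairs). The lymphotoxin and TNF pairs at the top are blue throughout.

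Downstream of the receptors, 23 genes of signalling adaptors and regulators were examined. Of these, 15 had a peak at the 5′ end (65.2%, 95% Wilson interval 44.9 to 81.2%), against the 32.2% of all autosomal coding genes, 6 lay in wide intervals (26.1%, 12.5 to 46.5%), close to the 23.6% of all genes, and 2 had neither (8.70%, 2.42 to 26.8%), against 39.1%. With only the peaks at or above the median width of 1365 bp, 9 of the 23 had one at the 5′ end, against 20.7% of all genes. Traf1, Traf3, Traf4, Traf5 and Traf6 had a peak at the 5′ end, whereas Traf2 lay in a wide interval. The death domain adaptors Tradd and Fadd, the kinase Ripk1, the protease Casp8 and its inhibitor Cflar each had one, and the midpoint lay 4 bp from the 5′ end of Casp8 and 56 bp from that of Fadd. As many as 2 peaks, the most of any adaptor, were found over Traf1, Traf5, Tradd, Casp8, Cflar, Birc3 and Tank. Besides Traf2, the wide intervals held Map3k14, Tnfaip3, Sharpin, Rnf31 and Tab1, where Map3k14 encodes the NF-kappaB-inducing kinase and Tnfaip3 an inhibitor of NF-kappaB. Birc2 and Tab2 had neither, with a peak edge 1.15 and 2.19 kb from the 5′ end.

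Superfamily genes on autosomes that the rule did not take were Fasl, Edar, Ngfr and Relt. Ngfr, the low affinity receptor for neurotrophins, had a peak at its 5′ end, and the other 3 had neither a peak nor a wide interval, a list too short to set against the share of all genes. Fasl lies on chromosome 1 beyond Tnfsf18, and the nearest peak edge was 5.66 kb from its 5′ end.

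For other cytokine families the shares were as follows, with no test of the differences and beside 32.2%, 23.6% and 39.1% of all autosomal coding genes. Of 80 interleukin and interleukin receptor genes, 17.5% had a peak at the 5′ end, 30% lay in wide intervals and 41.2% had neither. Of 57 chemokine and chemokine receptor genes, 19.3% had a peak at the 5′ end, 14.0% lay in wide intervals and 61.4% had neither. The share with neither was 10% among the TNF superfamily members, as given above.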

How the data were processed

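The authors trimmed reads with Trim Galore 0.6.4, aligned them uniquely to mm9 with Bowtie 1.0.0, called narrow and broad peaks per replicate with MACS2 2.2.6 and RADs with EDD, merged them with bedtools 2.27.1 and kept those called in both replicates. Thresholds and the use of the control were not given in the sources used here. Unique alignment leaves out repeats, and keeping shared calls drops weak binding. The deposited file holds positions only (unit other), as chromosome, start and end in 3 columns, so depth is unknown. The antibody label names the CD43 beads, and the protocol's anti-HA antibody was followed.

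Intervals were divided at 50 kb and printed from 1 on mm9 (NCBIM37), with GENCODE M1 genes. A peak at the 5′ end shared 1 bp or more with the 2 kb centred on the 5′ base of the gene. Shares have 95% Wilson intervals. No test was made, as the list has no value per sample. Members, lists, pairs and measures were chosen with earlier results of these data known, and the gene density and length divisions after the members' values were seen. All members were named. Sequences are of the 3 members with the nearest midpoint and a paired gene without a peak. Overlap functions were tested on simulated data. Python 3.11.15, numpy 2.4.6 and scipy 1.17.1 were used.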

Additional observations from a re-analysis of the deposited data

How the results depend on the processing

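The 10 results were recomputed in 35 comparisons, of which 24 kept their value within 1.5 times (counts) or within its 95% interval (the share of all genes and medians). Some of the 24 could not change. Leaving out members in wide intervals removed none with a peak, and a window of 0.1 kb had to keep peaks that cover the first base. Another set 15 distinct peaks against 14 members. The 24 is therefore no measure of robustness. Of 14 members with a peak at the 5′ end, 10 were left with peaks at or above the median width of 1365 bp, as Tnfrsf10b, Tnfrsf22, Tnfrsf23 and Tnfsf13b dropped out, and 17 were counted with windows of 5 kb. With the whole list, wide intervals included, 33 members had an interval at the 5′ end, a setting at which the share of all genes was not computed. Over the gene or 5′ end, 36 had one, which left the 4 with neither, against 39.1% of all genes. Counted by interval, the 19 members in wide intervals became 9. This is a number of intervals and not of genes, and no share of all genes was computed in that way. The 9 can therefore not be set against the 23.6% of all genes. With peaks at or above the median width, 15 distinct peaks met a member, 8 members had neither and 9 adaptors had a peak at the 5′ end. The share of all genes with neither was not computed for the wider peaks, so the 8 cannot be set against the 39.1%. The share of all autosomal coding genes with a peak there was 28.9% with windows of 0.1 kb, 35.2% with 5 kb, 34.2% for any transcript, 30.1% for midpoints and 20.7% for the wider peaks. With windows of 0.5 kb, GC medians of members with and without a peak came closer, to 53.7% and 54.3%. Counting Tnfrsf22 by symbol, an alternative chosen after seeing the data, left 14 members with a peak and 3 with neither of 39. No paired analysis was possible because positions were given for both replicates combined. For the same reason no replicate could be left out, and depth sets no limit that could be computed.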
